A study of Mus musculus with 23 samples.

Results

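The small nucleolar RNA host genes on the expression arrays were all probes whose gene name in the scanner files starts with Snhg, together with Gas5 and 1810032O08Rik, whose current symbol is Snhg16. The set held 11 of the 31829 gene names on the array, with 16 of its 39429 probes. Gas5 had 3 probes, 1810032O08Rik, Snhg11 and Snhg12 had more than 1, and the remaining 7 genes had 1 probe each. The set was chosen by the log2 differences of Gas5, Snhg11 and 1810032O08Rik between the low protein groups and the controls, so the differences of its probes between PR or FA and CD are given as descriptions. How many of them passed the limit used for all probes is stated once, beside the share of the whole array, and supports nothing.

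Whole brains, cerebrum and cerebellum together, of 12 male C57BL/6J progenies were taken at 19 weeks of age, with 4 mice in each diet group and 1 mouse per array. In every group, embryos were made by in vitro fertilization from B6 parents on a normal diet, carried by ICR recipient mothers, delivered by caesarean section and raised by ICR foster mothers. The diets named below were eaten by the recipient mothers from a month before embryo transfer until delivery, and the progenies of all groups ate the control diet after weaning. Casein made up 20% of the CD by weight and 5% of both low protein diets. Folic acid made up 0.02% of the CD and of the PR diet, and 0.1% of the FA diet. The same mice had been through behavioral tests before the brains were taken. The labels do not give the litter of a mouse, so brothers may be counted as separate animals within a group. The 4 arrays of each diet lay on 1 slide and were scanned together, so an effect of the slide and an effect of the diet cannot be told apart.

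Small nucleolar RNAs guide the chemical modification of ribosomal and other RNAs, and most mammalian ones are cut out of the introns of longer host transcripts. Some hosts are protein-coding genes of the translation machinery, and others, such as Gas5 and the Snhg genes, make spliced RNAs with little or no coding capacity. The spliced Gas5 RNA is known as a substrate of nonsense-mediated decay, the pathway that removes transcripts with early stop codons while they are translated, and its level is known to rise in growth-arrested cells. Transcripts of this class often begin with a run of pyrimidines, the feature that ties the translation of ribosomal protein mRNAs to nutrient and growth signals. Snhg11 is known as a host gene with high expression in neurons. A whole brain measures all its cells together, and a change in the number of cells of a type cannot be told apart from a change in RNA per cell.

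The 5 probes of Gas5 and 1810032O08Rik are shown first, because probes of the same record gave different results in both genes. They are written 5′ to 3′ on the strand of the transcript, with coordinates in mm9, the build of the files. Capitals mark the polyadenylation hexamers AATAAA or ATTAAA, which were searched on the transcript strand and occurred in 16.7% of all probes of the array.
Gas5, base 1072 of its record, chr1:162966369-162966428: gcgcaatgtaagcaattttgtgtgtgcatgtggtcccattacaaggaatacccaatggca
Gas5, base 2053, chr1:162967350-162967409: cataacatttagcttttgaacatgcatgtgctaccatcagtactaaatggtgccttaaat
Gas5, base 2493, chr1:162968608-162968667: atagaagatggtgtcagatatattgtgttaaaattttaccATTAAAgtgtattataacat
1810032O08Rik, base 1622, chr11:116536738-116536797: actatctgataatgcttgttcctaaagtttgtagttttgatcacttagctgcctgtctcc
1810032O08Rik, base 1932, chr11:116537048-116537107: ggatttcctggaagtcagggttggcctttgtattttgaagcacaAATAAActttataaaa
The last probe of each gene held a hexamer and the upstream probes did not. All 5 are named by non-coding RefSeq records. Between the Gas5 probes at bases 1072 and 2053, the distance was 981 bases in the record and 981 in the genome, so the record keeps all of the sequence between them. Between bases 2053 and 2493 the record spans 440 bases and the genome 1258, so 818 bases of the genome are absent from the record there. The probes of 1810032O08Rik lay 310 bases apart in both.

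At the upstream Gas5 probes, the low protein groups were above the controls on every array. The probe at base 1072 read 7.68, 7.42, 7.26 and 7.09 on CD replicates 1 to 4, 8.21, 8.36, 8.20 and 8.17 on the PR arrays, and 8.57, 8.34, 8.56 and 8.47 on the FA arrays, as log2 of the normalized intensity. The CD arrays were all lower than the PR and FA arrays, and the PR and FA arrays overlapped. Its mean was higher than in CD by 0.87 ± 0.11 (log2, limma standard error, n = 4 arrays per group) in PR and by 1.12 ± 0.11 in FA, which are 1.83-fold and 2.18-fold. The probe at base 2053 read 7.70, 7.47, 7.53 and 7.32 on CD, 8.23, 8.79, 8.42 and 8.21 on PR, and 9.0, 8.73, 8.77 and 8.50 on FA. It showed the same order, with differences of 0.91 ± 0.14 in PR and 1.24 ± 0.14 in FA.

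The Gas5 probe at the end of the record did not show this pattern. It read 13.08, 13.16, 13.09 and 13.03 on CD, 12.95, 12.94, 12.98 and 12.84 on PR, and 13.10, 13.16, 13.05 and 13.05 on FA. The PR arrays were all below the CD arrays, and the FA and CD arrays overlapped. PR differed from CD by -0.16 ± 0.05 and FA by 0.00 ± 0.05 on the log2 scale.

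1810032O08Rik, the Snhg16 host, divided in the same way. The probe at base 1622, which the array lists against 1 of the 3 RefSeq records of the gene, read 5.65, 5.43, 5.50 and 5.59 on CD, 6.21, 6.53, 6.31 and 6.41 on PR, and 6.73, 6.88, 6.87 and 6.80 on FA. The groups did not overlap and stood in the order CD, PR, FA. It was well above background on 2 of the 4 CD arrays and on all PR and FA arrays, and its differences from CD were 0.82 ± 0.08 in PR and 1.28 ± 0.08 in FA. The probe at base 1932, listed against all 3 records, read 10.01, 10.04, 9.86 and 9.74 on CD, 9.74, 10.01, 9.86 and 9.77 on PR, and 9.97, 10.16, 9.99 and 9.84 on FA. All groups overlapped there, with differences from CD of -0.07 ± 0.09 in PR and 0.08 ± 0.09 in FA.

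Both probes of Snhg11 were higher in the low protein groups. The probe at base 577 of its record, chr2:158206508-158206567, read 9.97, 10.34, 9.82 and 9.88 on CD, 11.44, 11.27, 11.05 and 11.18 on PR, and 11.43, 11.28, 11.10 and 11.17 on FA. The PR and FA arrays covered nearly the same range and lay above all CD arrays. The probe at base 5536, chr2:158211554-158211613, read 14.13, 14.26, 13.97 and 13.85 on CD, 14.88, 14.87, 14.61 and 14.75 on PR, and 15.07, 15.08, 15.00 and 15.01 on FA, with no overlap between any groups. PR was above CD by 1.23 ± 0.12 at the upstream probe and by 0.72 ± 0.09 at the downstream one, and FA by 1.24 ± 0.12 and 0.99 ± 0.09.

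Snhg7 was the other host whose probe differed by at least 0.5. Its probe at chr2:26492862-26492921 read 8.34, 8.07, 8.42 and 8.37 on CD, 8.56, 8.78, 8.58 and 8.59 on PR, and 8.99, 8.97, 9.02 and 8.81 on FA. The groups did not overlap and stood in the order CD, PR, FA, with differences from CD of 0.33 ± 0.08 in PR and 0.65 ± 0.08 in FA.

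**Figure D1:**
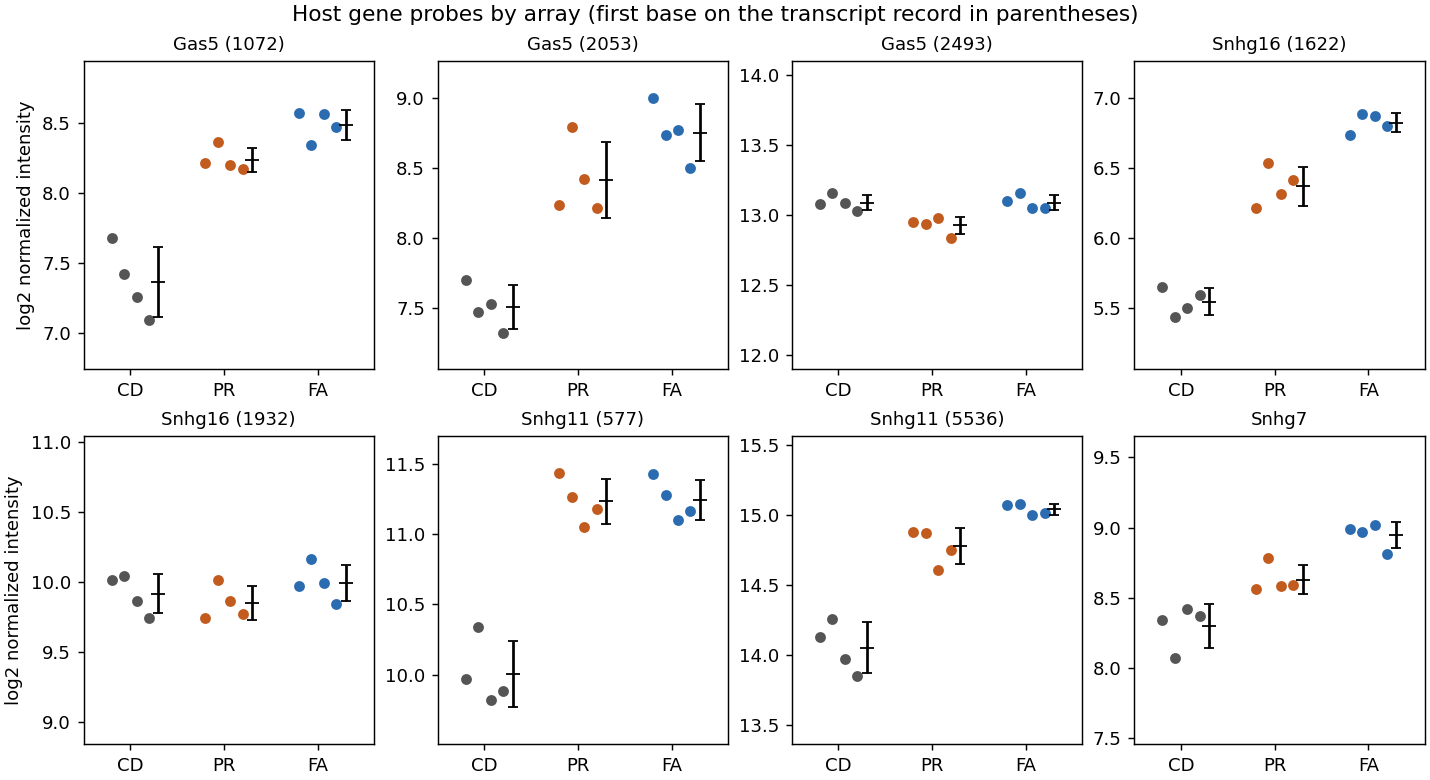
Each point is the log2 normalized intensity of 1 probe on 1 array, with the mean and SD of the 4 arrays of a diet beside the points, and every panel spans the same number of log2 units. The upstream probes of Gas5 (bases 1072 and 2053) and Snhg16 (base 1622) and both Snhg11 probes are lowest on the 4 CD arrays, while Gas5 at base 2493 and Snhg16 at base 1932 stay within 0.16 of CD on average.

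The other probes differed less. Snhg1, the host of a group of small nucleolar RNAs that guide modification of ribosomal RNA, averaged 8.65 ± 0.05 (SD, n = 4) in CD, 8.84 ± 0.08 in PR and 9.04 ± 0.05 in FA, and its groups did not overlap. Snhg3, Snhg6, Snhg10 and the Snhg12 probe at base 530 differed from CD by -0.23 to 0.01 in PR and by -0.22 to 0.15 in FA. The lowest of these were the Snhg12 values, -0.23 ± 0.08 in PR and -0.22 ± 0.08 in FA. The probes of Snhg8 and Snhg9 and the Snhg12 probe at base 952 were well above background on at most 2 arrays of a group, and no difference is given for them. In all, 12 of the 16 probes were well above background on all 12 arrays, and the probe of 1810032O08Rik at base 1622 on all arrays of PR and FA.

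**Figure D2:**
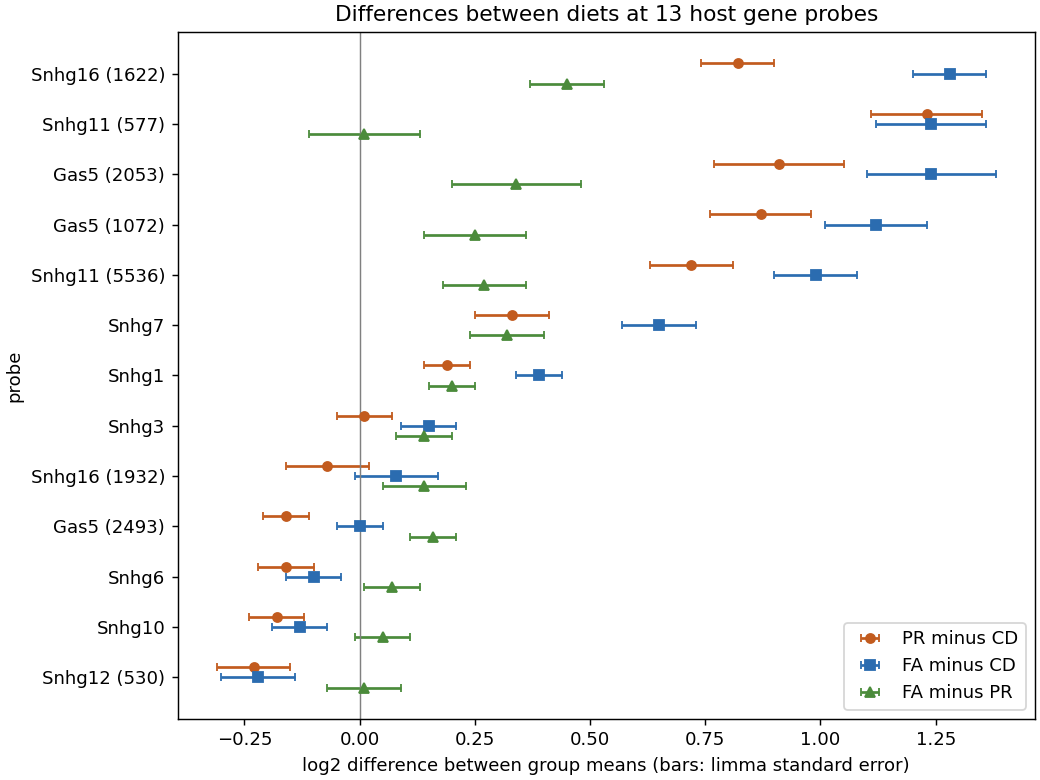
Log2 differences between group means, with limma standard errors as bars, are plotted for the 13 probes with signal well above background throughout at least 1 group. The 5 upper probes, of Snhg16, Snhg11 and Gas5, lie between 0.72 and 1.28 in PR and FA against CD, and in the same contrasts Snhg12, Snhg10, Snhg6 and the last Gas5 probe lie at or below 0.

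A probe was called when its adjusted p in limma, over all probes of the array, was under 0.05. Of the 16 probes, 7 were called higher and 2 lower in PR against CD, where 13.4% of all probes were called higher and 16.6% lower. The lower ones were Snhg10 and the last Gas5 probe. In FA against CD, the same 7 probes were called higher and none lower, where 16.4% of all probes were called higher and 18.0% lower. These were the upstream Gas5 probes, the upstream 1810032O08Rik probe, both Snhg11 probes, Snhg7 and Snhg1. Since these contrasts were used to draw up the set, nothing is read from the counts. With scaling to the 75th percentile, 7 were called higher and 4 lower in PR, where 15.1% and 22.1% of all probes were, and 7 higher and 1 lower in FA, where 15.5% and 24.1% were. A normexp background correction gave 7 higher and 1 lower in both. Of all probes, 11.9% were then called higher and 9.26% lower in PR, and 16.0% and 12.3% in FA. Over all probes, the correction turned the split in PR from 5288 higher and 6532 lower to 4691 higher and 3650 lower. The median difference of the 16 probes was 0.31 in PR and 0.37 in FA, against -0.02 and -0.01 over all probes. It includes the 3 probes for which no difference is given, and fell to 0.09 in PR and 0.12 in FA with normexp and to 0.11 in PR without PR replicate 3.

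The lower-signal probes depended on how the background was treated. With the normexp correction, the 1810032O08Rik probe at base 1622 differed from CD by 0.34 in PR and 0.55 in FA, and the Gas5 probe at base 1072 by 0.54 and 0.74. The net signal of the negative control spots was 28.3 to 34.9 on the CD arrays, 42.3 to 51.4 on the PR arrays and 38.9 to 47.9 on the FA arrays. Between 27068 and 28458 spots were well above background on CD arrays, 31266 to 33478 on PR arrays and 30408 to 31672 on FA arrays. The part of the background signal in the differences of these probes was not tested. The array held 10813 probes with a mean log2 intensity from 5 to 9 that were well above background on all PR and FA arrays. Of these, 16.3% were called higher and 12.5% lower in PR, and 20.2% and 14.9% in FA. Of the same 10813 probes, 1.94% were higher than CD by at least 0.8 in PR and 2.54% in FA. Selection by signal in PR and FA, and not in CD, favours probes that are higher in those groups.

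The spread between probes of the same record was set beside that of other transcripts. The FA and PR differences from CD were also those that drew up the set, so the values are descriptions. Over the 3385 RefSeq records with at least 2 probes well above background on all arrays, the largest and smallest FA minus CD differences of a record lay a median of 0.21 apart, with a 95th percentile of 0.77. The spread was 1.24 for Gas5 and 0.25 for Snhg11. In PR against CD it was 1.07 and 0.51, beside a median of 0.20 and a 95th percentile of 0.72. Spreads of at least 1 occurred in 1.54% of records in PR and 1.86% in FA. With the normexp correction, the FA spread was 0.85 for Gas5, against a 95th percentile of 0.57. The record of 1810032O08Rik is not among these, because its upstream probe was well above background on only 2 CD arrays, and it is not set beside them.

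Over all of these records, the difference of the first probe minus that of the last had a median of 0.05 in PR and 0.03 in FA, and the first probe was the higher one in 57.7% and 54.3% of records. The middle 90% of records lay between -0.65 and 0.52 in FA, and the value of Gas5 was 1.12.

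**Figure D3:**
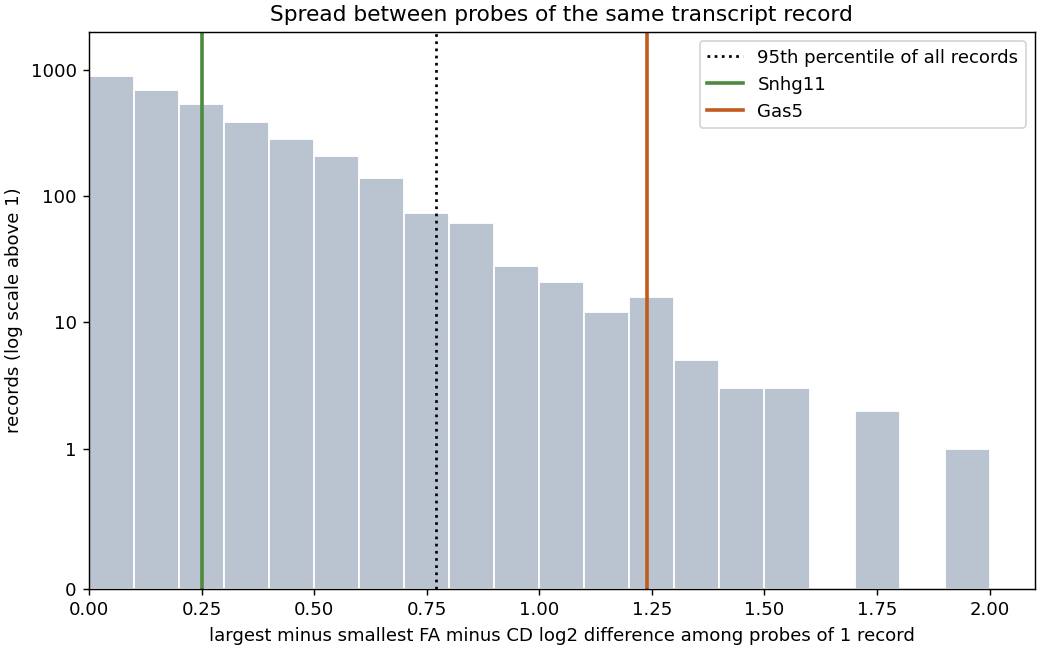
The histogram counts transcript records, on a logarithmic axis above 1, by the gap between the largest and smallest FA minus CD log2 difference among the probes of a record. The line for Gas5 lies at 1.24, the 95th percentile of all records at 0.77, and the line for Snhg11 at 0.25, near the median of 0.21. With the normexp correction the Gas5 spread was 0.85 and the 95th percentile 0.57.

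The FA diet held as much casein as the PR diet and more folic acid. This contrast was not used to draw up the set, although the same FA arrays were. Choosing genes partly by high FA values can favour probes that are higher in FA than in PR. The counts of members in this contrast are therefore descriptions. The FA arrays were higher at 15 of the 16 probes, where 55.8% of all probes were higher, and the median difference was 0.14 against 0.02 over all probes. The count includes the dim probes of Snhg8 and Snhg9 and repeated probes of the same genes. Snhg8 turned to -0.04 with scaling to the 75th percentile. Only the 1810032O08Rik probe at base 1622 was called, higher in FA by 0.45 ± 0.08 (limma, adjusted p = 0.0386, n = 4 arrays per group), where 0.228% of all probes were called higher and 0.386% lower. All 4 FA arrays exceeded all 4 PR arrays at this probe. The adjusted p ranged from 0.021 to 0.131 over the 21 alternative settings. The call was lost with scaling to the 75th percentile (0.0717), with the replicate block (0.0962), in the fit of only FA and PR, with the Tukey test and when any of 9 arrays was left out. With the normexp correction the difference was 0.22.

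Several other hosts were higher in FA than in PR without passing the limit. The FA and PR arrays did not overlap at 5 probes, which were higher in FA, where 6.15% of all probes did so. Besides 1810032O08Rik, these were Snhg7, higher by 0.32 ± 0.08 (limma, adjusted p = 0.121), Snhg1 by 0.20 ± 0.05 (adjusted p = 0.111), the last Gas5 probe by 0.16 ± 0.05 (adjusted p = 0.146) and the Snhg11 probe at base 5536 by 0.27 ± 0.09 (adjusted p = 0.217). The upstream Gas5 probes differed by 0.25 ± 0.11 (adjusted p = 0.346) and 0.34 ± 0.14 (adjusted p = 0.332). The Snhg11 probe at base 577 differed by 0.01 ± 0.12 (adjusted p = 0.983).

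Deviations of the probes from their group means were compared over the 12 arrays, for the 13 probes well above background in at least 1 group. The probes shared arrays, slides and normalization, so the values are descriptions. The Snhg11 probes varied together, with r = 0.83, and so did the upstream Gas5 probes, with r = 0.63. The upstream and last probes of Gas5 had r = 0.14 and 0.33, and those of 1810032O08Rik had r = 0.37, against a median of 0.26 over 4523 pairs of probes of 1 record. Among the 7 probes with the largest differences from CD, r ranged from -0.48 to 0.83 with a median of 0.19, and among the other 6 it ranged from 0.23 to 0.92 with a median of 0.58. Snhg11 at base 577 and Snhg7 gave the lowest value, -0.48.

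**Figure D4:**
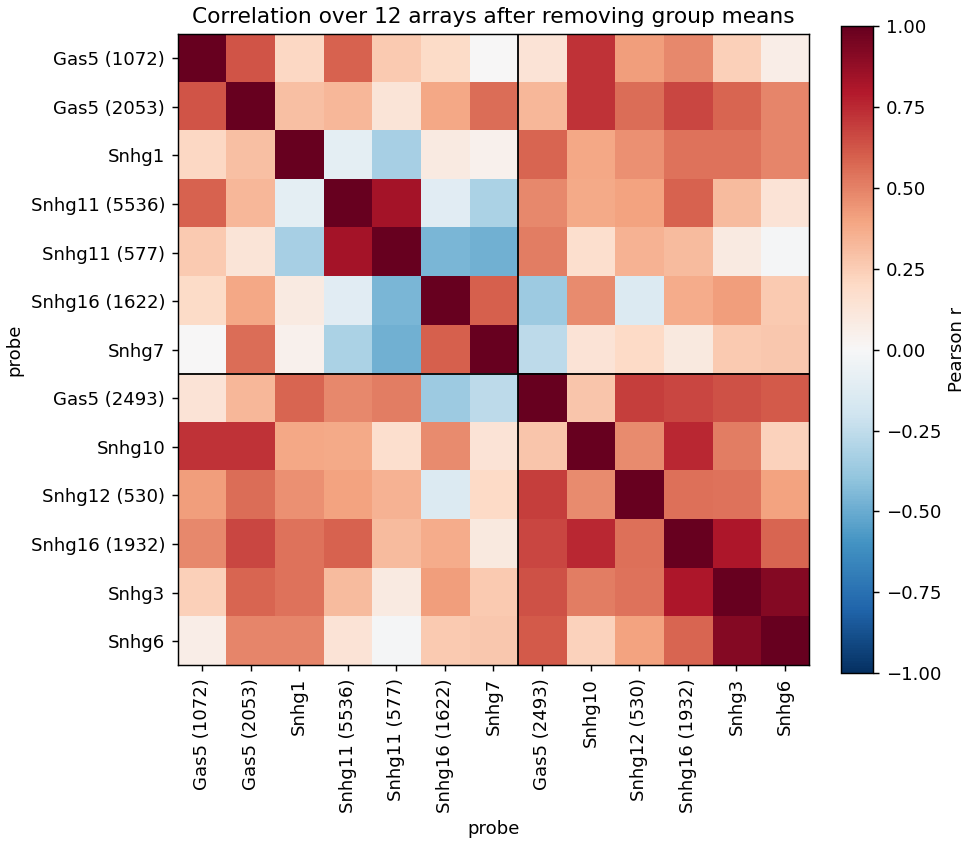
The colour of each square is Pearson's r between 2 probes over 12 arrays after the mean of each diet was removed, with the 7 probes of largest difference from CD in the upper left block. That block holds values from -0.48 to 0.83, and the lower right block of the other 6 probes holds values from 0.23 to 0.92.

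The annotated starts of several hosts are shown because a pyrimidine run at the start is a known feature of this class. Sequences are from RefSeq on GRCm38, with 20 bases before the annotated start and 30 from it on. Capitals mark a run of at least 5 pyrimidines that begins with C within 10 bases of the start, searched on the strand of the gene.
Gas5, downstream start, chr1:161035146-161035195, + strand: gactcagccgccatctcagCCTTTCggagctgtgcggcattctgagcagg
Snhg16, chr11:116671640-116671689, + strand: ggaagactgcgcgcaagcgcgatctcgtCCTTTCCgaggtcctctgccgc
Snhg7, chr2:26640215-26640264, - strand: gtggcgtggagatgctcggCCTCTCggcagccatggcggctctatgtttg
Snhg12, chr4:132308658-132308707, + strand: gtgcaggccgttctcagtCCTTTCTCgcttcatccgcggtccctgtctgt
Snhg11, chr2:158375693-158375742, + strand: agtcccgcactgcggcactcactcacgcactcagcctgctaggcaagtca
Such a run was present at 1 or more starts of 8 of the 10 member genes with an entry, and at 1 or more starts of 32.6% of all genes. Counted by start, 29.0% of all promoters held one and 51.3% of those of cytosolic ribosomal protein genes. The other annotated start of Gas5, chr1:161034581-161034630, held none, and neither did the starts of Snhg11 and Snhg1. A run is a description of the letters, and no use of these starts was measured.

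Another 4 hosts, which the files name otherwise, were found by their current symbols, with 1 probe each. Snhg14, the long transcript of the Prader-Willi and Angelman region that runs across the Ube3a gene, was higher than CD by 0.33 ± 0.07 in PR (limma, adjusted p = 0.00716) and by 0.33 ± 0.07 in FA (adjusted p = 0.00603). Snhg17 read 7.38 to 7.76 on CD, 7.15 to 7.52 on PR and 7.02 to 7.14 on FA, and was lower in FA than in CD by 0.47 ± 0.10 (adjusted p = 0.00512). Snhg5 read 3.01 to 3.21 on CD, 3.42 to 3.87 on PR and 4.17 to 4.60 on FA, with no overlap. It was well above background on no CD array, 1 PR array and 3 FA arrays, so no fold is given. Snhg20 was well above background on at most 2 arrays of a group.

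The machinery around the host genes was read from lists of related genes. Of 11 probes for 8 core proteins of small nucleolar ribonucleoproteins, 2 rose and 1 fell in both PR and FA against CD, with medians of -0.06 and 0.03. The share of all probes called was 13.4% higher and 16.6% lower in PR and 16.4% and 18.0% in FA. A probe of Nop56, a core protein of box C/D particles whose gene is itself a host, rose by 0.37 ± 0.05 in PR and 0.36 ± 0.05 in FA (limma, adjusted p = 0.000692 and 0.000731). The others, which were brighter, were not called and differed by -0.09 and -0.06 in PR and by 0.03 and 0.05 in FA. Its partner Nop58 fell by 0.42 ± 0.05 and 0.37 ± 0.05 (adjusted p = 0.000161 and 0.000274). Of 13 probes for 10 assembly factors, 2 rose and 1 fell in PR and 3 rose and 1 fell in FA, against the same shares of all probes. A probe of Shq1, an assembly factor of box H/ACA particles, rose by 0.40 ± 0.11 and 0.53 ± 0.11, and another of this gene was not called, at -0.20 ± 0.13 and -0.22 ± 0.13. Of 11 probes for 10 factors of nonsense-mediated decay, 1 rose and 2 fell in PR and 2 rose and 2 fell in FA. Upf1, the helicase of this pathway, fell by 0.36 ± 0.06 and 0.44 ± 0.06 (adjusted p = 0.00105 and 0.000286), and Smg5, which acts on phosphorylated Upf1, rose by 0.27 ± 0.05 in both.

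Of 45 probes for 22 hosts that code for proteins, 8 rose and 9 fell in PR and 9 rose and 8 fell in FA, with medians of 0.00 and 0.01. As shares these lie near those of all probes, 13.4% and 16.6% in PR and 16.4% and 18.0% in FA. Scaling to the 75th percentile gave 4 higher and 20 lower in PR (8.89% and 44.4%) and 6 and 15 in FA (13.3% and 33.3%), where 15.1% and 22.1% of all probes were called in PR and 15.5% and 24.1% in FA. A probe of Hspa8, a constitutive chaperone and host of small nucleolar RNAs, rose by 0.80 ± 0.08 and 0.88 ± 0.08 (limma, adjusted p = 9.81e-05 and 7.36e-05), and its other probes were not called. A probe of Rps3, a ribosomal protein gene and host, fell by 1.03 ± 0.09 and 0.96 ± 0.09. Another of the same gene differed by -0.32 ± 0.08 in PR, where it was called as well, and by -0.21 ± 0.08 in FA. The remaining Rps3 probe was called in neither, at -0.21 ± 0.07 in PR and -0.07 ± 0.07 in FA. Of 176 probes for cytosolic ribosomal proteins, 9 rose (5.11%) and 30 fell (17.0%) in PR and 14 rose (7.95%) and 28 fell (15.9%) in FA, so the share that fell was near that of all probes. Scaling to the 75th percentile gave 5 higher and 98 lower (55.7%) in PR and 7 and 87 (49.4%) in FA, against 22.1% and 24.1% of all probes lower. Of the other non-coding hosts, Dancr was higher by 0.39 ± 0.11 and 0.45 ± 0.11 (adjusted p = 0.0205 and 0.00883) and Zfas1 differed by -0.04 ± 0.05 and 0.06 ± 0.05.

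Markers of the cell types of brain were present in every sample, with all 25 probes for neurons, oligodendrocytes, astrocytes, microglia and endothelium well above background on all arrays. Of these probes, 8 were called higher and 5 lower in PR, where 13.4% of all probes were called higher and 16.6% lower. In FA, 7 were called higher and 5 lower, where 16.4% of all probes were called higher and 18.0% lower. The summed intensity of the endothelium markers was 11200 to 11800 on the CD arrays, 12100 to 17500 on the PR arrays and 12700 to 16100 on the FA arrays, all above CD. That of the astrocyte markers was 35700 to 37300 on CD, 38100 to 40700 on PR and 34600 to 38300 on FA, and that of the microglia markers 23600 to 25500, 21800 to 24500 and 22000 to 22900. Neuron and oligodendrocyte sums overlapped between each low protein group and CD, and so did those of choroid plexus and red cells. Probes of the same marker differed, as 2 of 3 Gfap probes rose, by 0.43 and 0.57 in PR, and 1 of 2 Cx3cr1 probes rose, by 0.62, with the other at -0.24. Other markers of astrocytes and microglia did not move together. Of the Csf1r probes, 1 was called higher, at 0.29 in PR and 0.17 in FA. The others were at -0.30 and -0.14 in PR, where only the first was called. In FA they were at -0.25 and -0.14, and only the second was called. Aldh1l1 differed by -0.02 in PR and -0.05 in FA and was not called. The Aqp4 probes were called lower in FA, at -0.44 and -0.35, and both differed by -0.21 in PR, where 1 was called. Aif1 was called lower at -0.37 in PR and -0.28 in FA.

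Of 4 pituitary genes, Gh and Prl were well above background on 4 CD arrays, no PR array and 1 FA array, and were called lower in PR and FA. The summed intensity of the 4 genes was 1900 to 2010 on the CD arrays, 916 to 1150 on the PR arrays and 578 to 1470 on the FA arrays. In the endothelium and pituitary sums, the brightest probe made up most of the total. In the endothelium sum this was Cldn5, with a CD mean of 13.47 (log2) against 7.37 for Pecam1. Cldn5 was called higher in FA only, and Pecam1 in PR only. In the pituitary sum it was Pomc, with a CD mean of 10.38, and neither Pomc nor Cga was called in PR or FA. The endothelium and pituitary sums moved with the same groups as the host genes, and their part in the differences of the host genes was not tested.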

How the data were processed

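RNA of 12 whole brains was hybridized by the authors to single-colour Agilent arrays and quantified with Feature Extraction 11.0.1.1, with probes placed on mm9. The deposited scanner files hold spot intensities, corrected for background within the array, and flags (0 or 1, with no other unit) for spots well above background or marked as outliers. The authors also deposited a table of linear intensities normalized between arrays with the qspline function, and log2 of this table was used here. No depth exists for arrays, and the number of arrays limits the precision.

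Samples were grouped by diet label. A joint model of the 3 groups was fitted in R 4.3.3 with the limma package, version 3.58.1, using Benjamini-Hochberg adjustment over all 39429 probes of a contrast and calling probes at an adjusted p under 0.05. On simulated arrays the fit was tested before use. The flag of at least 50% of its spots made a probe well above background. Probe positions and sequences were taken from the files. Current symbols were matched by accession or symbol in a GRCm38 table for 30180 probes, all 16 members among them.

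The members and lists were chosen with earlier results of these data known. Values by array were given for Gas5, Snhg11, 1810032O08Rik and any other member with signal well above background throughout a group and a difference of at least 0.5. Genes of a related list were named when they were called higher or had the largest called difference. Alternatives were quantile normalization, scaling to the 75th percentile, normexp with an offset of 50, outlier spots left out, dim probes removed, the replicate number as a block, trend and robust variances, fits of only the groups compared, the Tukey test of the methods, and leaving out each array. Promoter methylation was not analysed here. Tables were made with Python 3.11.15 and pandas 2.3.3.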

Additional observations from a re-analysis of the deposited data

Results flagged for a closer look

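Of 48 sets of 4 arrays, 1 per member probe and diet, 6 held an array whose gap to its nearest neighbour was large for the range of its group, a limit that chance passes in about 1 of 20 sets. Of those well above background, Snhg7 read 8.78 on PR replicate 2 with the next at 8.59, and Snhg3 read 11.37 on FA replicate 2 with the next at 11.20. Among the dim probes, Snhg8 read 5.68 on CD replicate 3 with the next at 2.52, and Snhg12 at base 952 read 6.49 on PR replicate 3 with the next at 2.35. These were the only arrays of their group on which the probe of Snhg8 in CD and of Snhg12 in PR was well above background. Snhg12 at base 952 also read 3.67 on CD replicate 3, and Snhg9 read 4.11 on CD replicate 4, both without the flag for signal above background.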

How the results depend on the processing

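The number of members called, a description against CD, was 7 to 11 in PR and 7 to 9 in FA when an array was left out. Over all 39429 probes, 4077 to 5540 were then called higher and 5301 to 6726 lower in PR. In FA, 16.4% of all probes were called higher and 18.0% lower in the fit with every array. Nothing is read from these counts. The median difference of the members in PR against CD moved from 0.31 to 0.22 with scaling to the 75th percentile, 0.40 with quantile normalization, 0.09 with normexp and 0.19 without dim probes, and lay between 0.11, without PR replicate 3, and 0.35 when an array was left out. In FA against CD it moved from 0.37 to 0.46 with quantile normalization and 0.12 with normexp, and lay between 0.25 and 0.43 when an array was left out. The cause was not tested. The call of the last Gas5 probe as lower in PR was lost with normexp and without CD replicate 2, CD replicate 3 or PR replicate 4, and that of Snhg10 with normexp, the replicate block, a fit of only PR and CD and the Tukey test, and without CD replicate 1 or 2 or PR replicate 1, 3 or 4. In FA against PR the median lay between 0.10 and 0.22 when an array was left out.

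The single member called in FA against PR was lost, leaving 0, with scaling to the 75th percentile, the replicate block, a fit of only FA and PR, and the Tukey test, and leaving out an array gave 0 to 1, with the call kept without CD replicate 4, PR replicate 2 or FA replicate 1. Over all probes, 242 were called in this contrast, against 139 with scaling to the 75th percentile, 554 without dim probes, 436 with trend and robust variances, 101 in the fit of FA and PR and 8 with the Tukey test. The last Gas5 probe turned from 0.00 to -0.06 in FA against CD with scaling to the 75th percentile and lay between -0.02 and 0.03 when an array was left out, and Snhg11 at base 577 lay between -0.05 and 0.08 in FA against PR.

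The labels number the replicates of all diets alike. Deviations of same-numbered arrays from their group means correlated at -0.063 to 0.196, and those of differently numbered arrays at -0.216 to 0.18. These ranges show no clear pairing of the mice by number, and weak correlations cannot exclude one. With the replicate block, 9 members were called in PR against CD, 8 in FA against CD and 0 in FA against PR, and 11 of all probes in FA against PR. Of all probes, the block called 12.5% higher and 15.3% lower in PR against CD, and 15.4% and 16.8% in FA against CD. Signal over background limits the probes of Snhg8, Snhg9, Snhg12 at base 952, Snhg5 and Snhg20.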
